A study of Mus musculus with 9 samples.

Results

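The synthesis of cholesterol and fatty acids was followed through 30 genes that carry it out or control it, in mouse bone marrow-derived macrophages (Mϕs) kept in macrophage colony-stimulating factor (MCSF) alone or exposed to IL-4 or IL-6. The members were chosen by gene symbol from the pathway and by no cut on their values, though earlier results of these data were known. Of the 53379 gene identifiers in the expression table, 30 carried these symbols. All 30 reached the mean of 0.5 FPKM over the libraries that was asked for in the tests. They comprise 7 genes of the mevalonate steps, 3 that take the pathway from squalene to lanosterol, 8 that turn lanosterol into cholesterol, 5 regulators of sterol-sensing transcription, 1 sterol carrier and 6 genes of fatty acid synthesis. Bone marrow cells of C57BL/6 mice were grown with MCSF at 10 ng/ml for 3 days. They were then kept for 4 more days in MCSF alone (Control), in MCSF with IL-4 at 10 ng/ml, or in MCSF with IL-6 at 100 ng/ml, so all groups carried MCSF. These doses and times are those of the sample labels; the study's methods name a higher dose of IL-4, and a figure legend names other doses and a shorter exposure. Each group had 3 libraries numbered 1 to 3, giving 9 libraries of whole cultures, and the comparisons asked how each cytokine shifts gene expression in Mϕs. In whole cultures, fewer cells of one type and less RNA per cell cannot be told apart.

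Cholesterol is built from acetyl-CoA through mevalonate, isoprenoids, squalene and lanosterol, and fatty acids are built from the same acetyl-CoA by carboxylation, chain growth and desaturation. Both arms are driven by the sterol regulatory element-binding proteins (SREBPs), membrane-bound transcription factors. When membrane sterol is low, the escort protein Scap carries SREBPs from the endoplasmic reticulum to the Golgi for cleavage. When sterol is plentiful, the Insig proteins hold Scap back. Mϕs use the products for membranes, for cholesteryl ester stores and as precursors of oxysterols.

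The libraries held 29988160 to 39909571 fragments in genes, and levels are given as FPKM, that is fragments per kilobase of exon, scaled to the depth of the library, a scale per length on which genes can be set side by side. Library IL-4 #3 stood apart from the others: its median-ratio scale factor was 0.766, while the other 8 libraries had factors from 0.990 to 1.07. Values without it are therefore added for many calls of members and sizes of called differences that moved with it, though not for all. The libraries also fell into 2 sets by 19 transcripts of intestinal epithelium, which summed to 1390 to 1851 fragments in the 3 control libraries and IL-4 #1 and to 3 to 8 fragments in the other 5. Some of 18 skeletal muscle markers marked the other 5 instead. Myh1, Mb and Myl1 were at 0 in the controls and IL-4 #1 and above 0 in the other 5. Mylpf was at 0.378 to 0.778 against 2.21 to 5.48 FPKM. Tnni2 did not divide so, at 4.34 to 6.97 FPKM in controls and 0.879 to 2.28 elsewhere. No control and IL-6 library shared a set, so for that comparison the set and the cytokine cannot be told apart directly. The only bridge is IL-4, whose libraries lie in both sets, and a model that includes the set rests on that bridge. The tissue label was met by the Mϕ markers: all 10 of 10, among them Csf1r and Lyz2, were above 0.5 FPKM in at least 1 library, and the list summed to 16840 to 19200 FPKM in controls, 6152 to 7218 with IL-4 and 20610 to 21680 with IL-6. Granulocyte markers summed to 4923 to 8792, 2197 to 4137 and 7967 to 11130 FPKM in the same order.

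IL-4-treated Mϕs held more mRNA of 4 of 7 mevalonate genes, 2 of 3 genes from squalene to lanosterol, 4 of 8 from lanosterol to cholesterol, 2 of 6 of fatty acid synthesis and 1 of 5 regulators, while the sterol carrier did not pass. The desaturases Scd1 and Scd2 moved most. The levels of all 30 members summed to 237, 235 and 229 FPKM in the control libraries, to 699, 515 and 325 in the IL-4 libraries and to 440, 415 and 380 in the IL-6 libraries. All treated libraries thus lay above all controls in this sum, and IL-4 #3 lay below the IL-6 libraries. Measured as log2(FPKM + 0.1), with a limma fit over 12824 genes and Benjamini-Hochberg adjusted p under 0.05 as the call, 13 of 30 members were higher and 1 was lower with IL-4, where 8.55% of all genes tested were called higher and 16.3% lower. The 13 were Acat2, Mvk, Mvd, Fdps, Fdft1, Sqle, Cyp51, Msmo1, Nsdhl, Dhcr7, Insig1, Scd1 and Scd2, and the 1 was Scap. When a log2 fold change of 1 or more was also required, 11 members were higher, where 5.02% of genes were. The median difference between IL-4 and control was 0.88 over the members and -0.20 over all genes tested, on the log2 scale. A median-ratio rescaling shifted the all-gene median to -0.0080, the members' calls to 18 higher and 1 lower, and the calls over all genes from 1096 higher and 2090 lower to 1574 and 1618. The IL-4 libraries did not overlap the controls for 16 members that were higher and 1 that was lower, where 13.5% and 26.8% of all genes behaved so.

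Without IL-4 #3, 26 members were higher and 1 lower with IL-4, where 15.3% and 22.5% of all genes were called. The members left uncalled then were Pmvk, Ebp and Insig2. Leaving out any other library gave 8 to 11 members higher, where 5.85% to 8.80% of genes were, the fewest without Control #3, and the lower call of Scap was lost without any 1 of the 3 controls. Mvk, Mvd, Fdps, Fdft1, Sqle, Msmo1, Scd1 and Scd2 were called in all 9 fits that each left out 1 library. With the library set in the model, 16 members were higher and 0 lower, where 4.57% of genes were called higher. A fit to the control and IL-4 libraries alone gave 8 higher and 0 lower, where 5.23% and 8.77% of genes were called. That fit ended the calls of Acat2 (adjusted p = 0.0534), Cyp51 (0.0621), Nsdhl (0.120), Dhcr7 (0.0876), Insig1 (0.0994) and Scap (0.0957). Inside the set that holds the controls lies a single IL-4 library, #1, which was above every control for 29 of 30 members, where it was for 29.6% of all genes tested.

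With IL-6, 7 members were higher and 0 lower, where 4.58% of all genes were called higher and 3.82% lower. These were Pmvk, Mvd, Fdps, Fdft1, Sqle, Msmo1 and Scd2, and 5 of them also had a log2 fold change of 1 or more, where 3.49% of genes did. The median difference between IL-6 and control was 0.78 over the members and -0.0044 over all genes, on the log2 scale. The 3 IL-6 libraries lay above all 3 controls for 27 members and below them for Ebp and Scap, where 20.0% and 23.2% of all genes behaved so; Dhcr7 alone overlapped. The comparison shares its 3 control libraries with that of IL-4.

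The number of IL-6 calls moved with the libraries and the terms in the fit. Leaving out IL-4 #3, which belongs to neither group, left each IL-6 difference as it was but gave 22 members higher and 1 lower, where 12.3% and 12.4% of all genes were called. A fit to the control and IL-6 libraries alone gave 23 higher and 1 lower, where 11.1% of genes were called higher. In the other direction, 1 member was left without Control #3, which was Mvd, where 2.41% of genes were called higher, and Mvd was the only one called in all 9 fits. Without IL-6 #1, 1 member was called higher (3.02% of genes), and without IL-6 #2 or IL-6 #3, 2 each (2.43% of genes in either fit). Without Control #1 the count was 3 (3.13% of genes) and without Control #2 it was 4 (2.79%). Without IL-4 #1 the count was 11 (4.92% of genes), and without IL-4 #2 it was 6 (4.05%). With the set in the model, 5 members were higher, where 1.15% of genes were. There the calls of Pmvk (adjusted p = 0.198), Fdps (0.104) and Scd2 (0.0597) ended and Cyp51 was called (0.0478). The median IL-6 difference over the members was 1.61 in that fit and 0.78 without the set, on the log2 scale. Scd2 went from 2.23 to 3.40, Fdps from 0.92 to 1.48 and Pmvk from 1.19 to 1.39. The set term comes from IL-4 #1 against IL-4 #2 and #3 alone. The values of IL-4 #3 thus enter each of these differences. It was the lowest IL-4 library for 24 of 30 members, where it was for 59.1% of all genes tested. IL-4 #1 was above IL-4 #2 for 30 of 30 members, where it was for 53.3% of all genes tested. What part the set has in the IL-6 differences was not tested.

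**Figure D1:**
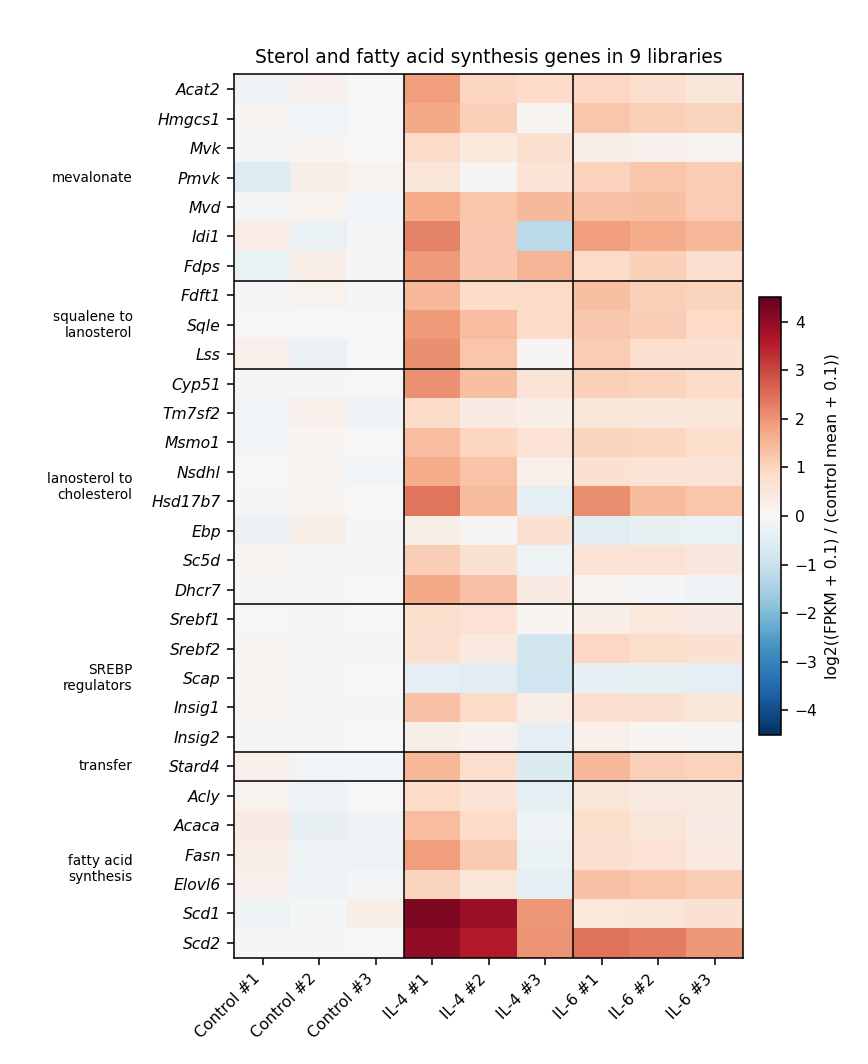
Colour gives log2((FPKM + 0.1) / (control mean + 0.1)) for the 30 genes (rows, grouped by role) in the 9 libraries (columns). IL-4 #1 and #2 and the IL-6 libraries are above the control mean for most genes, while IL-4 #3 is above every control for 18 genes and below every control for 10.

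The promoters of the members are shown because many members moved together and share letters that the choice by symbol did not use. In the RefSeq windows used here (GRCm38.p6), 24 of the 30 members were matched by symbol, with 32 windows of 250 bases before a start, and Fdft1, Fdps, Scd1, Scd2, Sqle and Stard4 were not matched. CCAAT, the letters bound by NF-Y, a factor known to work beside SREBPs, was found on either strand in 20 of the 32 windows (62.5%) and in 33.8% of all 32851 windows. By gene, 19 of 24 members held it in at least 1 window, and 37.5% of 27025 genes did. The E-box CACGTG was in 5 of the 32 windows (15.6%) and in 6.0% of all windows. TCACNCCAC, a core of the sterol regulatory element, was in 1 member window, that of Hmgcs1, and in 1.1% of all windows. The windows below run 5′ to 3′ on the strand of the gene and end at the base before the start, and capitals mark CCAAT, which reads ATTGG where it lies on the opposite strand, and in Hmgcs1 also the element core. Mvd, Msmo1, Mvk and Cyp51 are the members with the smallest adjusted p whose windows held any of these letters, and Hmgcs1 was added after its match was seen.
Mvd (chr8:122443423-122443672, minus strand): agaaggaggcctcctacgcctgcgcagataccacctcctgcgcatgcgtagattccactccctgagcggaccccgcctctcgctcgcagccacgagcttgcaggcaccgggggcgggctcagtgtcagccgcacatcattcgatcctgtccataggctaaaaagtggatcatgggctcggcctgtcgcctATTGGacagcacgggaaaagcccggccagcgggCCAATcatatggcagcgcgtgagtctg
Msmo1 (chr8:64733579-64733828, minus strand): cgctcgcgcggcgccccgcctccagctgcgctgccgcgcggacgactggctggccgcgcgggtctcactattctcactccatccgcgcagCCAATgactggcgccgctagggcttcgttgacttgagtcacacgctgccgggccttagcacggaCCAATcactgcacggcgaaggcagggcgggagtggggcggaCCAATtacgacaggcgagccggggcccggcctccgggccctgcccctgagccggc
Mvk (chr5:114444019-114444268, plus strand): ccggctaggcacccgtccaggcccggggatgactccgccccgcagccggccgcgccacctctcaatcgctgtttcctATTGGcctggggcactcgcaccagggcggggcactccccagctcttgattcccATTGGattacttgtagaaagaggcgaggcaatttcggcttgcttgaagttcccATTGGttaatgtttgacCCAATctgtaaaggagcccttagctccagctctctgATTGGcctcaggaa
Cyp51 (chr5:4104698-4104947, minus strand): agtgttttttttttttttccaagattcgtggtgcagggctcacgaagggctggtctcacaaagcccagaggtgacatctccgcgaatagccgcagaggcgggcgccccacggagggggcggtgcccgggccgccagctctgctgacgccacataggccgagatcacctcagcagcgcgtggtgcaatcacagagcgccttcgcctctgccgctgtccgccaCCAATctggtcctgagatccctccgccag
Hmgcs1 (chr13:119690101-119690350, plus strand): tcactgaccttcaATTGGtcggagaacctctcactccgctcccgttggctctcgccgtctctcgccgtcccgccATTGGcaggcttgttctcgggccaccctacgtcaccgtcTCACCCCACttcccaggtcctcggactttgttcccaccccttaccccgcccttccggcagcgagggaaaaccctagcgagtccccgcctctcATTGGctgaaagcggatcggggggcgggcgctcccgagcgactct
The CCAAT letters occur 2 times in the window of Mvd, 3 times in those of Msmo1 and Hmgcs1, 5 times in that of Mvk and 1 time in that of Cyp51. A match is a description of letters and not of binding, and no test was run on these shares.

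Among the mevalonate genes, 4 of 7 rose with IL-4 and 3 of 7 rose with IL-6. Mvd, the decarboxylase that makes isopentenyl diphosphate, stood at 15.4, 17.7 and 14.4 FPKM in control libraries #1 to #3, at 50.2, 37.6 and 44.0 in the IL-4 libraries and at 39.4, 40.6 and 35.5 in the IL-6 libraries. Both treated groups lay wholly above the controls and overlapped each other. The log2 difference was 1.46 ± 0.14 (SE) with IL-4 (adjusted p = 0.000195) and 1.28 ± 0.14 with IL-6 (adjusted p = 0.00118), the smallest adjusted p of any member in both comparisons. Leaving out IL-4 #3 hardly moved Mvd, with a log2 difference of 1.45 without that library.

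Fdps, the synthase of farnesyl diphosphate, was measured at 3.34, 5.22 and 3.99 FPKM in controls, 16.3, 9.79 and 12.4 under IL-4 and 7.71, 8.86 and 7.19 under IL-6. Every treated library was above every control, and every IL-4 library was above every IL-6 library. Fdps rose by 1.59 ± 0.23 with IL-4 (adjusted p = 0.00156) and by 0.92 ± 0.23 with IL-6 (adjusted p = 0.0431) on the log2 scale. The IL-6 call was lost in 5 of 9 fits without 1 library (Control #1 or #3 or any IL-6 library, highest adjusted p = 0.160) and with the mouse number as a block (adjusted p = 0.0917) or the library set (0.104) in the model. Fdps shares 23.4% of its 50-base stretches with the pseudogene Gm43738 and 12.1% with Gm3571, so its level is uncertain to that extent.

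Acat2, the cytosolic thiolase that joins the first acetyl-CoA units, was at 1.89, 2.61 and 2.23 FPKM in controls, 8.48, 4.44 and 4.11 under IL-4 and 4.39, 3.88 and 3.24 under IL-6. The controls lay below all 6 treated libraries. It rose by 1.23 ± 0.28 with IL-4 (adjusted p = 0.0144; 0.0571 without Control #1 and 0.0504 without Control #3), while the IL-6 difference of 0.75 did not pass (adjusted p = 0.170). Without IL-4 #3 its rise with IL-4 was 1.42. Acat2 shares 39.1% of its 50-base stretches with its near copy Acat3 and overlaps Tcp1 on the other strand.

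Mvk and Pmvk, the kinases that phosphorylate mevalonate in turn, differed between the cytokines. Mvk was at 4.19, 4.61 and 4.27 FPKM in controls, 8.04, 6.02 and 7.24 under IL-4 and 5.43, 5.01 and 4.83 under IL-6. Its IL-4 libraries lay above its IL-6 libraries, and these narrowly above the controls. It rose by 0.68 ± 0.14 with IL-4 (adjusted p = 0.00904), and the IL-6 difference of 0.22 ± 0.14 did not pass (adjusted p = 0.444). Pmvk was at 4.75, 8.66 and 7.94 FPKM in controls, 10.4, 7.38 and 11.1 under IL-4 and 14.9, 17.0 and 15.8 under IL-6. Here the IL-6 libraries were above all others and the IL-4 libraries overlapped the controls. Pmvk rose by 1.19 ± 0.25 with IL-6 (adjusted p = 0.0228, lost without Control #3 or any IL-6 library, highest 0.0954, and with the set in the model, 0.198) and differed by 0.45 ± 0.25 with IL-4 (adjusted p = 0.223).

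Hmgcs1, which makes HMG-CoA, and Idi1, which isomerises isopentenyl diphosphate, passed in neither comparison over all libraries. Hmgcs1 ranged 14.6 to 17.2 FPKM in controls, 17.4 to 53.0 under IL-4 and 32.2 to 38.2 under IL-6, with log2 differences of 0.98 (adjusted p = 0.0727) and 1.11 (adjusted p = 0.0987). Idi1 ranged 1.35 to 2.13, 0.665 to 8.37 and 4.92 to 6.43 FPKM in the same order. Its lowest IL-4 value came from IL-4 #3, below every control, and the other IL-4 libraries were at 8.37 and 4.04 FPKM. Without IL-4 #3 both genes passed with IL-4 (log2 difference 1.41, adjusted p = 0.000688, for Hmgcs1, and 1.75, adjusted p = 0.00317, for Idi1) and with IL-6 (adjusted p = 0.00242 and 0.00396).

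Of the 3 genes that lead from farnesyl diphosphate to lanosterol, 2 rose with each cytokine. Sqle, the squalene epoxidase and a rate-limiting step, was at 5.59, 5.68 and 5.80 FPKM in controls, 22.0, 15.2 and 10.1 under IL-4 and 13.5, 12.3 and 10.7 under IL-6. The controls differed little among themselves and lay below all treated libraries, and IL-4 #3 was below every IL-6 library. The log2 rise was 1.38 ± 0.25 with IL-4 (adjusted p = 0.00556) and 1.08 ± 0.25 with IL-6 (adjusted p = 0.0376, lost in 7 of 9 fits without 1 library, all but those without IL-4 #1 or IL-4 #3, highest 0.143). Without IL-4 #3 the rise of Sqle with IL-4 was 1.66. Fdft1, squalene synthase, was at 3.10, 3.61 and 3.06 FPKM in controls, 9.30, 5.82 and 6.03 under IL-4 and 8.39, 6.98 and 6.71 under IL-6. The treated groups overlapped each other and not the controls. Fdft1 rose by 1.06 ± 0.20 (adjusted p = 0.00614) and 1.15 ± 0.20 (adjusted p = 0.0107; 0.0570 without Control #3 and 0.0516 without IL-6 #1). It overlaps Ctsb on the other strand over 17.2% of its 50-base stretches. Lss, lanosterol synthase, ranged 0.862 to 1.26 FPKM in controls, 1.10 to 4.78 under IL-4 and 1.74 to 2.42 under IL-6, and passed with neither (adjusted p = 0.104 and 0.347). Without IL-4 #3 it passed with both (adjusted p = 0.00225 and 0.0409).

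Of the 8 genes from lanosterol to cholesterol, 4 rose with IL-4 and 1 rose with IL-6. Cyp51, the sterol demethylase, was at 7.87, 7.21 and 7.40 FPKM in controls, 31.1, 19.3 and 11.3 under IL-4 and 16.0, 15.1 and 13.3 under IL-6. All treated libraries exceeded the controls. Cyp51 rose by 1.33 ± 0.31 with IL-4 (adjusted p = 0.0169; 1.70 without IL-4 #3, adjusted p = 0.000335; adjusted p = 0.0556 without Control #2 and 0.0567 without Control #3), and its IL-6 difference of 0.97 ± 0.31 did not pass over all libraries (adjusted p = 0.113) and passed without IL-4 #3 (adjusted p = 0.00541).

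Msmo1, the methylsterol monooxygenase of a later demethylation, was at 9.40, 10.7 and 10.4 FPKM in controls, 26.9, 19.8 and 16.0 under IL-4 and 20.5, 19.7 and 17.8 under IL-6. Every treated library exceeded the controls. It rose by 1.00 ± 0.18 with IL-4 (adjusted p = 0.00559) and 0.92 ± 0.18 with IL-6 (adjusted p = 0.0198), the latter lost without any 1 control or IL-6 library (highest adjusted p = 0.0863). Without IL-4 #3 the rise of Msmo1 with IL-4 was 1.18. Nsdhl, the decarboxylating dehydrogenase of the same demethylation, was at 4.73, 5.20 and 4.34 FPKM in controls, 15.3, 11.7 and 5.60 under IL-4 and 7.69, 7.26 and 7.33 under IL-6. IL-4 #3 lay below the IL-6 libraries, and the other IL-4 libraries lay above them. The rise of 1.07 ± 0.32 with IL-4 (adjusted p = 0.0431) was held in only 1 of 9 fits without 1 library, that without IL-4 #3 (1.48, adjusted p = 0.000110), and was lost in the other 8 (highest 0.129).

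Dhcr7, the reductase of the last step to cholesterol, separated the cytokines. It was at 4.40, 4.67 and 4.56 FPKM in controls, 14.9, 11.6 and 5.84 under IL-4 and 5.00, 4.42 and 4.07 under IL-6. The IL-4 libraries were above all others, and the IL-6 libraries overlapped the controls. Dhcr7 rose by 1.13 ± 0.30 with IL-4 (adjusted p = 0.0282; 1.51 without IL-4 #3, adjusted p = 0.000110; lost without any 1 control, IL-4 #1, IL-4 #2 or IL-6 #2, highest 0.0848), and the IL-6 difference was -0.019 ± 0.30 (adjusted p = 0.977). Ebp, the sterol isomerase, was the other member of this arm that differed between the cytokines. It was at 18.8, 26.7 and 21.9 FPKM in controls, 26.8, 23.6 and 36.0 under IL-4 and 16.1, 17.9 and 18.1 under IL-6. The IL-6 libraries lay below all others, and the IL-4 libraries overlapped the controls. Neither difference from control passed (0.35, adjusted p = 0.218, with IL-4 and -0.36, adjusted p = 0.338, with IL-6).

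Tm7sf2, a sterol reductase, Hsd17b7, a ketosteroid reductase, and Sc5d, a sterol desaturase, passed in neither comparison over all libraries. Tm7sf2 ranged 2.53 to 3.33 FPKM in controls, 3.46 to 5.06 under IL-4 and 4.00 to 4.15 under IL-6. Hsd17b7 ranged 0.825 to 0.934, 0.643 to 5.11 and 2.21 to 4.12, and Sc5d 7.33 to 8.04, 6.41 to 16.6 and 11.0 to 12.1 FPKM. In all 3 the IL-6 libraries exceeded the controls, and for Hsd17b7 and Sc5d IL-4 #3 was below every control. Without IL-4 #3 all 3 passed with IL-4 (adjusted p = 0.0268, 0.00291 and 0.00139) and with IL-6 (adjusted p = 0.0389, 0.00742 and 0.00864).

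**Figure D2:**
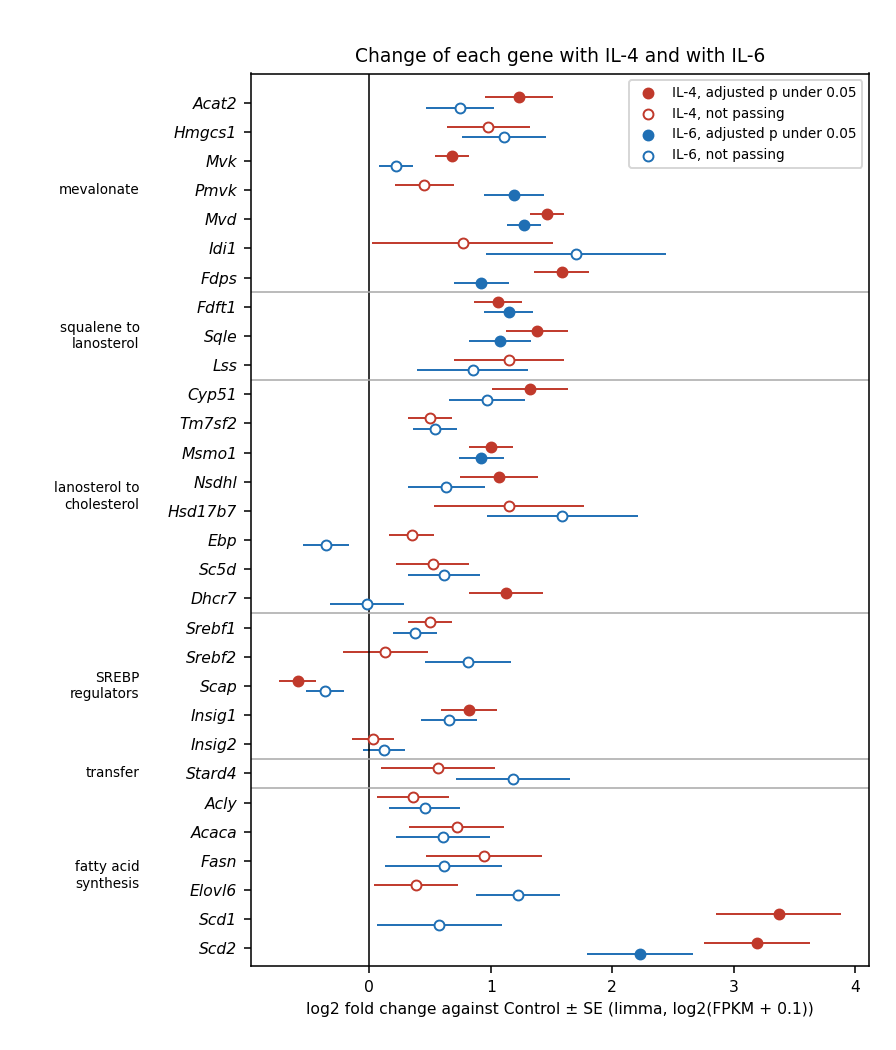
Points give the log2 fold change of each gene with IL-4 (red) and IL-6 (blue) against control and bars its standard error from the limma fit of log2(FPKM + 0.1), 3 libraries per group. Filled points have an adjusted p under 0.05: 14 with IL-4, of which Scap is the only one below 0, and 7 with IL-6.

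Among the SREBP regulators, Insig1 rose and Scap fell with IL-4, and none of the 5 passed with IL-6. Srebf1, whose products mainly drive fatty acid genes, was at 10.4, 9.99 and 10.4 FPKM in controls, 17.7, 16.1 and 10.8 under IL-4 and 12.7, 14.2 and 13.3 under IL-6. All treated libraries exceeded the controls, IL-4 #3 by the least, with log2 differences of 0.50 ± 0.18 (adjusted p = 0.0777) and 0.38 ± 0.18 (adjusted p = 0.281). Srebf2, whose product mainly drives cholesterol genes, was at 22.2, 19.9 and 19.4 FPKM in controls, 34.6, 27.9 and 11.6 under IL-4 and 39.1, 35.7 and 33.4 under IL-6. IL-4 #3 was the lowest of all 9 libraries, while the other IL-4 libraries and the IL-6 libraries were above the controls. The log2 differences were 0.13 ± 0.35 with IL-4 (adjusted p = 0.810) and 0.81 ± 0.35 with IL-6 (adjusted p = 0.232). Without IL-4 #3 they became 0.60 (adjusted p = 0.00577) and 0.81 (adjusted p = 0.00155), and those of Srebf1 0.71 (adjusted p = 0.000517) and 0.38 (adjusted p = 0.0106).

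Insig1, itself a target of SREBPs and a brake on them, was at 18.9, 16.5 and 16.5 FPKM in controls, 43.0, 31.5 and 21.2 under IL-4 and 28.8, 27.9 and 25.4 under IL-6. All treated libraries exceeded the controls. It rose by 0.82 ± 0.23 with IL-4 (adjusted p = 0.0327; 1.09 without IL-4 #3, adjusted p = 0.000719; lost without any other 1 library, highest 0.103), and differed by 0.66 ± 0.23 with IL-6 (adjusted p = 0.140). Insig2, the second brake, was at 6.47, 5.94 and 6.36 FPKM in controls, 7.56, 7.09 and 4.88 under IL-4 and 7.34, 6.67 and 6.48 under IL-6. Its IL-4 libraries overlapped the controls, its IL-6 libraries lay just above them, and neither difference passed (0.032 ± 0.17 and 0.12 ± 0.17). Scap, the escort protein, was at 6.42, 5.64 and 6.03 FPKM in controls, 4.57, 4.24 and 3.21 under IL-4 and 4.64, 4.79 and 4.53 under IL-6. All treated libraries were below the controls. Scap fell by 0.59 ± 0.15 on the log2 scale with IL-4 (adjusted p = 0.0244), and the difference was -0.44 without IL-4 #3. The call was lost without Control #1, #2 or #3 (adjusted p = 0.0867, 0.0549 and 0.0838). With the set in the model, where IL-4 #1 alone stands for IL-4, the difference was -0.39. The IL-6 difference was -0.36 ± 0.15 (adjusted p = 0.222, and 0.0199 without IL-4 #3). Scap overlaps 5830462I19Rik on the other strand over 9.96% of its 50-base stretches.

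Stard4, a soluble sterol carrier, ranged 4.22 to 5.53 FPKM in controls, 2.99 to 13.4 under IL-4 and 9.38 to 13.0 under IL-6, and passed with neither (adjusted p = 0.418 and 0.192). Its value in IL-4 #3 was below every control. Without that library the log2 differences were 1.15 (adjusted p = 0.00702) and 1.18 (adjusted p = 0.00658).

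In the fatty acid arm, the desaturases held the widest differences of the module with IL-4. With IL-6 only Scd2 did so. Idi1 (log2 difference 1.70, adjusted p = 0.237) and Hsd17b7 (1.59, adjusted p = 0.185) came next with IL-6 and did not pass over all libraries. Scd1 and Scd2 introduce the double bond that makes oleic and palmitoleic acid, and they lie near each other on chromosome 19, Scd1 at 44394455 to 44407879 on the minus strand and Scd2 at 44293674 to 44306864 on the plus strand (GRCm38). Scd1 was at 0.847, 0.938 and 1.23 FPKM in controls, 20.3, 16.2 and 4.24 under IL-4 and 1.42, 1.51 and 1.67 under IL-6. All IL-4 libraries were above all others, and the IL-6 libraries lay narrowly above the controls. Mean Scd1 was 13.5 times the control mean with IL-4 (log2 difference 3.37 ± 0.51, adjusted p = 0.00224) and 1.53 times with IL-6 (0.58 ± 0.51, adjusted p = 0.597; 0.0345 without IL-4 #3). Scd2 was at 9.88, 9.06 and 9.51 FPKM in controls, 150.4, 114 and 39.1 under IL-4 and 52.1, 46.8 and 37.0 under IL-6. The controls were below all treated libraries, and IL-4 #3 fell among the IL-6 libraries. Mean Scd2 was 10.7 times the control mean with IL-4 (log2 difference 3.19 ± 0.43, adjusted p = 0.00124) and 4.78 times with IL-6 (2.23 ± 0.43, adjusted p = 0.0179, lost without any 1 control or IL-6 library, highest 0.0772, and with the set in the model, 0.0597). Scd1 was thus the lower of the pair in every library, and without IL-4 #3 their IL-4 differences were 4.06 and 3.77. The 2 genes share 2.97% of the 50-base stretches of Scd1.

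The genes that feed the desaturases did not pass in either comparison over all libraries. Acly, which releases acetyl-CoA from citrate, ranged 26.7 to 34.3 FPKM in controls, 22.9 to 55.7 under IL-4 and 40.3 to 44.6 under IL-6. Acaca, the acetyl-CoA carboxylase, ranged 1.01 to 1.72, 1.12 to 3.51 and 1.72 to 2.30 FPKM. Fasn, the fatty acid synthase, ranged 3.21 to 4.55, 2.99 to 14.0 and 5.00 to 6.14 FPKM. Elovl6, which extends palmitate, had the lowest mean of the module and ranged 0.446 to 0.615, 0.370 to 1.14 and 1.23 to 1.45 FPKM. In each the IL-6 libraries lay at or above the highest control, and the IL-4 range ran from a lowest value in IL-4 #3 to values above all controls in the other IL-4 libraries. Their log2 differences were 0.36, 0.72, 0.94 and 0.38 under IL-4 and 0.45, 0.61, 0.61 and 1.23 under IL-6. Without IL-4 #3 those with IL-4 became 0.74, 1.16, 1.55 and 0.77, and all 4 passed (adjusted p = 0.00285, 0.00877, 0.00154 and 0.0267). With IL-6, Acly (adjusted p = 0.0240) and Elovl6 (0.00381) passed without that library, and Acaca (0.0896) and Fasn (0.0686) did not. Acaca shares 29.2% of its 50-base stretches with the pseudogene Gm5182.

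Set directly against each other, the cytokines differed in 5 members. IL-6 was higher than IL-4 in Pmvk and lower in Mvk, Ebp, Dhcr7 and Scd1, 1 and 4 of 30 where 20.8% and 13.3% of all genes were called. The higher count was thus below the share over all genes, and the lower count was near it. The median difference was -0.12 over the members and 0.22 over all genes on the log2 scale. For Scd1 the difference was -2.80 ± 0.51 (adjusted p = 0.00416) and was called in all 9 fits without 1 library, at -3.49 without IL-4 #3, and for Dhcr7 it was -1.15 ± 0.30 (adjusted p = 0.0209; 0.0613, 0.0638 and 0.0721 without IL-4 #2, IL-6 #2 and IL-6 #3). These 2 also passed when a log2 fold change of 1 or more was required, where 6.82% of genes were called lower, a share near that of the members. Ebp differed by -0.70 ± 0.19 (adjusted p = 0.0211; 0.0760, 0.0581 and 0.0562 without IL-6 #1, #2 and #3), Mvk by -0.46 ± 0.14 (adjusted p = 0.0349, lost in 7 of 9 fits, highest 0.118) and Pmvk by 0.74 ± 0.25 (adjusted p = 0.0493, lost in 7 of 9 fits, highest 0.133). Mvk kept its call without IL-4 #2 or #3 and Pmvk without Control #1 or IL-4 #3. Without IL-4 #3 the difference was -1.53 for Dhcr7 and -0.53 for Ebp. Dhcr7 (0.0633) and Mvk (0.0952) lost the call when only the IL-4 and IL-6 libraries were fitted, and Mvk (0.0759) and Pmvk (0.0578) lost it with the set in the model. With the mouse number as a replicate block, Pmvk (adjusted p = 0.0644) and Mvk (0.0550) were no longer called.

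Without IL-4 #3, 1 member was higher and 12 were lower with IL-6 than with IL-4, where 24.7% and 18.5% of all genes were called. The 12 were Mvk, Sqle, Lss, Cyp51, Nsdhl, Ebp, Dhcr7, Srebf1, Insig1, Fasn, Scd1 and Scd2. Inside the set without intestinal transcripts, which holds the IL-6 libraries and IL-4 #2 and #3, mean IL-6 was 0.150 of mean IL-4 for Scd1, 0.517 for Dhcr7, 0.583 for Ebp, 0.593 for Scd2, 0.768 for Mvk and 1.72 for Pmvk, as ratios of FPKM.

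**Figure D3:**
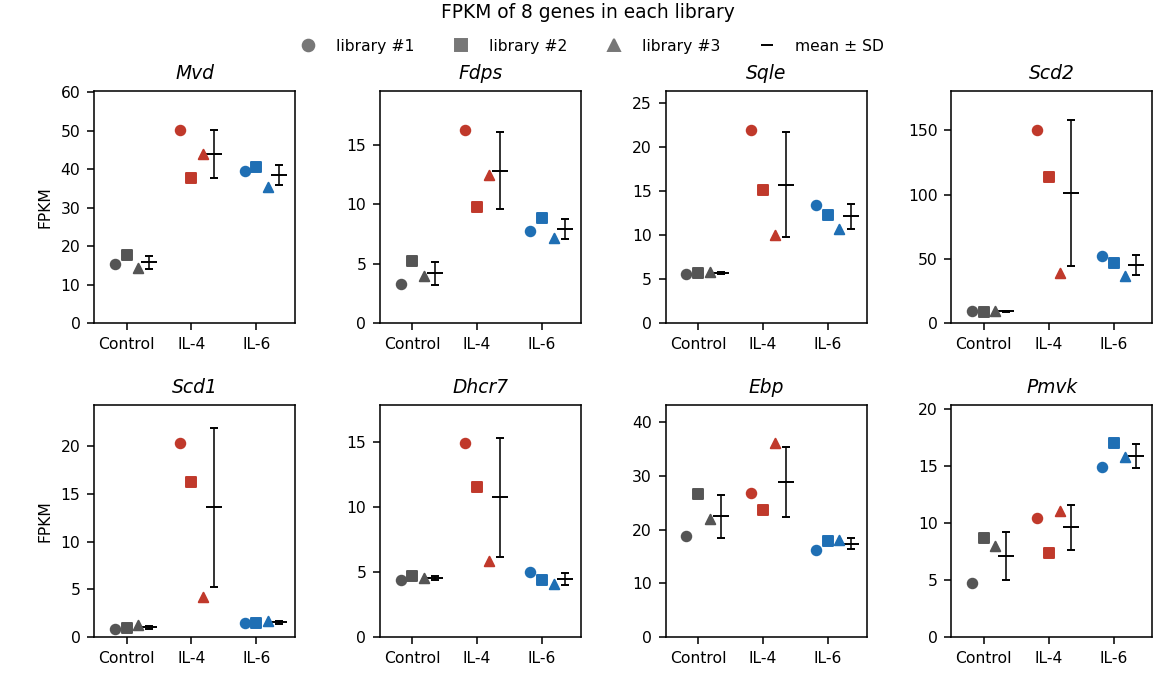
FPKM of 8 genes (vertical axes from 0, each gene on its own scale) in each library of the control, IL-4 and IL-6 groups, with the mean and SD of 3 beside the points. Mvd, Fdps, Sqle and Scd2 are above all controls in both treated groups, Scd1 and Dhcr7 are highest with IL-4, Ebp is lowest with IL-6 and Pmvk is highest with IL-6.

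How far IL-4 #3 departed from IL-4 #1 and #2 went with the length of a gene. It was the lowest IL-4 library for 24 of 30 members, where it was the lowest for 59.1% of all genes tested, and the highest for Pmvk and Ebp. Members with a longest transcript under 3000 bases had a median log2 difference of -0.53 (11 genes), those of 3000 to 5000 bases -1.13 (12 genes) and those over 5000 bases -1.62 (7 genes). Over all genes tested the same medians were 0.15, -0.56 and -1.12. Spearman's rho between length and difference was -0.698 over the 30 members and -0.495 over 12805 genes, points that all come from the same 3 libraries and are not independent. Mvd (1833 bases), Mvk (2380) and Fdps (2953) kept their level in IL-4 #3. Idi1 (3027 bases), Hsd17b7 (4612) and Fasn (10050) were among those that dropped below the controls there. Length did not sort every member. The log2 difference was -1.24 for Nsdhl (2168 bases) and -1.16 for Dhcr7 (2815), but -0.28 for Fdft1 (3698) and -0.30 for Tm7sf2 (3083). What part transcript length has in the IL-4 results was not tested beyond a fit with length and GC trends removed, in which 17 members were higher and 1 lower, where 11.3% and 23.7% of all genes were called.

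**Figure D4:**
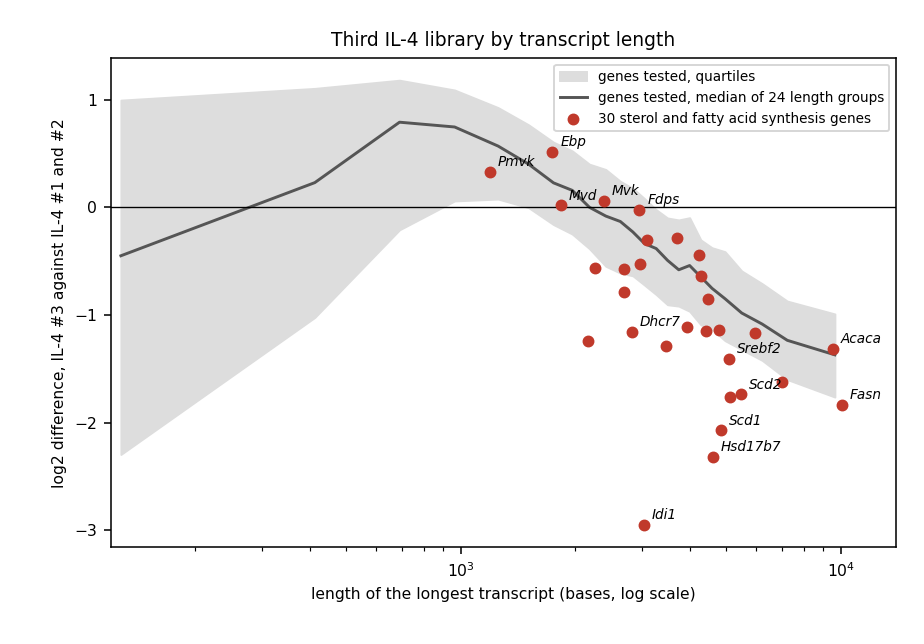
Log2 difference of IL-4 #3 from the mean of IL-4 #1 and #2 against the length of the longest transcript (log axis) for the 30 members (red) and for all genes tested (grey line, median of 24 groups of equal size, with quartiles). Ebp (0.52), Pmvk (0.33), Mvk (0.057) and Mvd (0.017) lie above 0, and Idi1 lies lowest at -2.95.

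Other genes of the pathways, from lists drawn up by role, moved less evenly than the members. Of 13 further genes of sterol and isoprenoid synthesis, 11 were tested, and 2 were higher and 1 lower with IL-4 and 1 higher and 2 lower with IL-6. Without IL-4 #3 these counts were 4 and 1, and 4 and 3. Por, the reductase that gives electrons to Cyp51 and Sqle, fell from 162 ± 20.3 FPKM in controls (SD, n = 3) to 69.9 ± 2.47 with IL-4 (adjusted p = 0.000386) and 81.2 ± 8.25 with IL-6 (adjusted p = 0.00318), opposite in sign to the enzymes it serves. Cyb5r3, another electron donor, rose from 38.7 ± 3.78 to 58.0 ± 5.95 FPKM with IL-4 (adjusted p = 0.00898) and was at 30.6 ± 0.715 with IL-6 (adjusted p = 0.145). Acat1, the mitochondrial thiolase, fell from 13.0 ± 0.361 to 9.16 ± 0.384 FPKM with IL-6 (adjusted p = 0.0415) and was at 11.3 ± 1.49 with IL-4.

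Of 25 further genes of fatty acid synthesis and elongation, 20 were tested, and 3 were higher with IL-4 and 1 with IL-6. Without IL-4 #3, 6 were higher and 1 lower with IL-4, and 4 higher and 3 lower with IL-6. Hsd17b12 and Elovl1, which work in the elongation of long chains, rose with IL-4 from 38.5 ± 5.06 to 59.3 ± 3.03 FPKM (adjusted p = 0.00621) and from 46.9 ± 4.32 to 64.4 ± 6.37 FPKM (adjusted p = 0.0230). Me1, the malic enzyme that supplies NADPH, rose from 0.305 ± 0.0251 to 0.610 ± 0.0857 FPKM with IL-4 (adjusted p = 0.0454) and to 0.772 ± 0.149 with IL-6 (adjusted p = 0.0314). Hacd2, a dehydratase of elongation, was at 4.70 ± 0.615, 3.52 ± 0.301 and 4.41 ± 0.0900 FPKM in control, IL-4 and IL-6 and did not pass (smallest adjusted p = 0.0735).

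Of 16 genes that move, cleave or degrade SREBPs and their escorts, 15 were tested, and 1 was higher with IL-4 and 0 with IL-6 (2 and 1 without IL-4 #3). It was Fbxw7, the ligase subunit that marks nuclear SREBPs for decay, at 3.64 ± 0.535 FPKM in controls, 5.56 ± 0.362 with IL-4 (adjusted p = 0.0205) and 3.37 ± 0.294 with IL-6. Rnf145, a ubiquitin ligase of the endoplasmic reticulum, was at 7.53 ± 1.07, 4.93 ± 2.23 and 9.07 ± 0.513 FPKM (smallest adjusted p = 0.149), and Ubxn4 and the coat GTPase Sar1b did not pass either (adjusted p = 0.249 and 0.280 with IL-4).

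Of 17 genes of sterol uptake, storage and efflux, 16 were tested, and 4 were higher and 3 lower with IL-4 and 1 higher and 3 lower with IL-6. Without IL-4 #3 these counts were 5 and 4, and 4 and 6. Apoe, the main apolipoprotein that Mϕs secrete, fell from 9378 ± 1592 FPKM in controls to 399 ± 114 with IL-4 (log2 difference -4.58 ± 0.23, adjusted p = 8.77e-06) and was at 6515 ± 958 with IL-6 (adjusted p = 0.249). Cyp27a1, which oxidises the cholesterol side chain, fell from 52.7 ± 3.38 to 15.9 ± 2.06 FPKM with IL-4 (adjusted p = 3.61e-05) and to 20.3 ± 0.924 with IL-6 (adjusted p = 0.000422). Ch25h, which makes an oxysterol known to block SREBP processing, was at 0 to 0.0849 FPKM in controls, 1.60 to 3.82 with IL-4 (adjusted p = 0.000300) and 0 to 0.0965 with IL-6. Soat2, which esterifies cholesterol for storage, rose from 0.452 ± 0.113 to 8.94 ± 5.71 FPKM with IL-4 (adjusted p = 0.000953) and to 2.32 ± 0.379 with IL-6 (adjusted p = 0.0346). Every call against control named in these lists held without IL-4 #3, and among these calls that library moved Soat2 most, whose mean with IL-4 was 6.15 FPKM without it (log2 difference 3.32, adjusted p = 0.000594). Hacd2 (-0.47, adjusted p = 0.0203) and Sar1b (0.27, adjusted p = 0.0232) were then also called with IL-4, and Cyb5r3 (-0.33, adjusted p = 0.0247) and Elovl1 (-0.30, adjusted p = 0.0359) with IL-6. In these lists the median log2 differences with IL-4 and IL-6 were -0.080 and -0.021 (sterol synthesis), 0.080 and 0.12 (fatty acid synthesis), -0.25 and 0.16 (SREBP processing) and -0.11 and -0.24 (uptake, storage and efflux), beside 0.88 and 0.78 for the members.

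Markers of cells rich in these enzymes were at or near 0. Of 12 adipocyte and stromal markers, 10 were under 0.5 FPKM in every library, among them Plin1, Lep and Cfd, and the list summed to 153.6 to 237.6 FPKM in controls, 456.5 to 608.8 with IL-4 and 62.64 to 68.86 with IL-6, nearly all of it Lpl, the lipoprotein lipase that Mϕs also express. Adipoq was the other exception, at 1.14, 1.03 and 0.744 FPKM in the IL-4 libraries and at most 0.0222 elsewhere. Of 10 hepatocyte markers, 6 were at 0 in every library, Alb among them, and 9 were under 0.5 FPKM. Of 18 proliferation genes, 3 were higher with IL-4 (median log2 difference 0.61) and 1 was lower with IL-6 (median 0.36). Without IL-4 #3, 14 of the 18 were higher with IL-4, and 4 were higher and 2 lower with IL-6, and what part proliferation has in the module's differences was not tested. Of 10 housekeeping genes, 1 was higher and 1 lower with IL-4 and 1 was lower with IL-6.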

How the data were processed

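RNA sequencing of 9 Mϕ libraries was taken from the table of FPKM values that the authors deposited. The submitters' processing notes and the methods name STAR 2.4.2a, GRCm38 and Cufflinks 2.2.1 for TruSeq stranded mRNA libraries; whether counting used strand is not given in the sources used here. The methods name annotation M5 of GENCODE, whereas 94.8% of the 53379 identifiers matched release M21 with their version. Values under 200 fragments in those genes were whole multiples of 1 fragment (100.0%, tolerance 0.05), which gave each library's total, 29988160 to 39909571. Which program and annotation made the values is thus unsettled in the sources used here. These totals bound counting precision only.

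Values were transformed to log2(FPKM + 0.1), and 12824 genes, those averaging at least 0.5 FPKM, were fitted with limma 3.58.1 (R 4.3.3, trend and robust options, group as the only term, all 9 libraries), and p-values were two-sided and Benjamini-Hochberg adjusted over all genes tested. The fit was tested on simulated data. The limits it had to meet there on recovered changes and on false calls were loosened after a change of random seed led to a run that missed them. A fold change on this scale understates that of low genes. An exact permutation test of 3 against 3 cannot go below 0.1, and it gave 0.1 for every member whose groups did not overlap. The series' design names 3 mice as the source of the cells and the columns number the libraries m1 to m3; that a number is the same mouse in every group is read from these and not stated, and the block on mouse number rests on that reading. Deviations of same-numbered libraries correlated from -0.415 to 0.521 over the comparisons. The p-values measure the spread between these libraries.

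The members, and the lists of other genes and markers, were chosen with earlier results of these data known. Values in every library are given for Srebf1, Srebf2, Insig1, Insig2 and every member called in any comparison. Up to 4 genes of each other pathway list are named, those with the smallest adjusted p against control; 1 gene that this would name is not reported here. Promoters follow the rule given beside them. Alternatives were other pseudocounts and filters, median-ratio and quantile scaling, the block, fits to 2 groups, the library set in the model, no trend or robust options, each library left out and, added after the data were seen, removal of length and GC trends. Analyses used Python 3.11.15 with pandas 2.3.3.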

Additional observations from a re-analysis of the deposited data

How the results depend on the processing

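Over 1776 alternative values of single members, 1513 kept direction and side of the threshold, 113 lost the threshold, 102 gained it and 48 changed direction. None of the 48 was called over all libraries (0) or under the alternative (0), and 38 of them were differences of IL-6 from IL-4. Leaving out 1 library gave 8 to 26 members higher and 0 to 1 lower with IL-4, 1 to 22 higher and 0 to 1 lower with IL-6, and 0 to 2 higher and 1 to 12 lower with IL-6 than with IL-4. The highest counts with each cytokine and the highest count lower with IL-6 than with IL-4 came without IL-4 #3. Over all genes, the fits without 1 library called 5.85% to 15.3% higher and 9.94% to 22.5% lower with IL-4. With IL-6 they called 2.41% to 12.3% higher and 1.19% to 12.4% lower. Between the cytokines, 13.3% to 24.7% were higher and 8.83% to 18.5% lower with IL-6 than with IL-4. With the mouse number as a replicate block, 13 members were higher and 1 lower with IL-4, 6 higher and 0 lower with IL-6, and 0 higher and 3 lower with IL-6 than with IL-4. The share of all genes called with the block is not given here, so these counts cannot be set against it. The block ended the calls of Fdps with IL-6 and of Pmvk and Mvk between the cytokines, and changed no other call of a member.

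Fitting only the groups compared gave 8 members higher and 0 lower with IL-4 (5.23% and 8.77% of all genes), 23 higher and 1 lower with IL-6 (11.1% and 10.9%), and 1 higher and 2 lower with IL-6 than with IL-4 (14.1% and 9.36%). Without a filter, Nsdhl, Dhcr7, Insig1 and Scap lost the call with IL-4, Fdps and Sqle that with IL-6, and Mvk and Pmvk that between the cytokines. No member was lower with IL-4 (0 against 1) when a log2 fold change of 1 or more was required, without a filter, with the library set in the model, or at a mean of at least 5 FPKM, where Scap was below the filter. For IL-6 above IL-4 the count was 0 in place of 1 with that fold change required, at a pseudocount of 0.01, without a filter, with median-ratio or quantile scaling and without trend and robust options, and 2 with that set in the model. Over all genes, 2280 were higher with IL-6 than with IL-4 after median-ratio scaling, and 24.7% with the set in the model. The count lower with IL-6 than with IL-4 was 2 with that fold change required (6.82% of all genes). The count lower with IL-6 than in controls was 1 after quantile scaling. For the other settings of this paragraph where no share of all genes is given, the counts cannot be set against it. Apart from the filter at 5 FPKM and the required fold change, which act by construction, the cause was not tested. The library set cannot be separated from IL-6 against control. Depth bounds counting error only, and the fewest fragments of a member in a library were 86 (Elovl6, Control #2).

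With median-ratio scaling, the log2 difference of IL-6 from IL-4 turned to -0.075 for Hmgcs1, -0.11 for Fdft1, -0.16 for Tm7sf2, -0.11 for Sc5d, -0.11 for Insig2 and -0.10 for Acly. With quantile scaling, the log2 difference of IL-6 from IL-4 turned to -0.14 for Fdft1, -0.25 for Tm7sf2, -0.12 for Sc5d, -0.061 for Scap and -0.16 for Insig2. With the library set in the model, the log2 difference of IL-6 from control turned to 0.83 for Dhcr7, and that of IL-6 from IL-4 turned to 0.18 for Lss, 0.12 for Msmo1, 0.018 for Srebf1, 0.076 for Insig1, 0.23 for Acaca and 0.15 for Fasn. With length and GC trends removed, the log2 difference of IL-4 from control turned to -0.12 for Insig2, and that of IL-6 from control turned to 0.092 for Dhcr7, and that of IL-6 from IL-4 turned to 0.11 for Mvd, -0.11 for Sc5d, 0.0081 for Insig1 and -0.00063 for Acly. Without 1 library, the difference of IL-4 from control crossed 0 over ranges of -0.087 to 0.22 for Insig2 and -0.18 to 0.60 for Srebf2. Without 1 library, the difference of IL-6 from control crossed 0 over ranges of -0.096 to 0.048 for Dhcr7. Without 1 library, the difference of IL-6 from IL-4 crossed 0 over ranges of -0.84 to 0.18 for Lss, -0.26 to 0.12 for Msmo1, -0.33 to 0.018 for Srebf1, -0.43 to 0.076 for Insig1, -0.55 to 0.23 for Acaca, -0.94 to 0.15 for Fasn, -0.033 to 0.30 for Fdft1, -0.062 to 0.20 for Tm7sf2, -0.30 to 0.50 for Hmgcs1, -0.051 to 1.68 for Idi1, -0.33 to 1.07 for Hsd17b7, -0.29 to 0.39 for Sc5d, -0.10 to 0.21 for Insig2 and -0.28 to 0.35 for Acly.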
